A study of Mus musculus with 3 samples.

Results

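Cycling natural killer (NK) cells without Cd3 are a small population among the CD45+ cells of KP1 tumors, which were profiled by droplet sequencing of single-cell RNA. They were chosen by the raw UMIs (unique molecular identifiers, each marking a captured transcript) of the genes below, so the levels of these genes are a description and not a finding. Only barcodes with 200 or more genes detected and no more than 20% of UMIs from mitochondria were considered. A member then held at least 2 UMIs summed over the NK receptor genes Ncr1, Klrb1c, Klra4, Klra8 and Klre1, and at least 3 summed over the proliferation genes Mki67 and Top2a. It held fewer than 2 UMIs of Cd3d, Cd3e and Cd3g, fewer than 4 of the T cell receptor genes Trac, Trbc1 and Trbc2, and fewer than 5 of the myeloid genes Lyz2, C1qa, C1qb, S100a8 and S100a9. In all, 185 of 71909 kept barcodes were members, made up of 25 of 22235 for mono-IL-10, 92 of 22707 for the IL-10/2-Trikine and 68 of 26967 for the combination. Values below follow that order of libraries.

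NK cells are innate lymphocytes that kill stressed, infected or transformed cells through granules of perforin and granzymes, and they secrete interferon-gamma and chemokines. They read surfaces through activating receptors, such as NKp46 (Ncr1) and NKG2D (Klrk1), and through inhibitory receptors of the Ly49 and NKG2A families, which sense MHC class I. They use the IL-2 receptor beta chain (Il2rb) and the common gamma chain (Il2rg) to receive IL-2 and IL-15, which act through STAT5 and are known to drive NK division, and they lack the CD3 complex of T cells.

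KP1 is an Rb- and p53-mutant mouse line of small-cell lung cancer (SCLC). B6129SF1/J mice, a first-generation cross of B6 and 129 parents, carried subcutaneous tumors from 500000 KP1 cells and received 3 µg of cytokine by intraperitoneal injection on alternate days, starting on day 7 and ending on day 19, when tumors were harvested. The mono-IL-10 group received a monomeric IL-10, the IL-10/2-Trikine group received that cytokine joined to a binder that recruits the IL-2 receptor beta chain, and the combination group received the IL-10/2-Trikine and 200 µg of anti-PD-1 antibody on days 7, 11, 15 and 19. Sample titles and treatment labels name the antibody for the combination alone, while the wording of the protocol could be read as giving it to all mice, so the second comparison rests on the titles and treatment labels and on the group names in the study's text. Each group was 1 library from 1 experiment, how many mice were pooled for it is not stated, and no untreated library was analysed here. The labels call the cells mouse T cells although the sort took live CD45+ cells.

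With 1 library a group there is no replicate check and no test. All 95% intervals given here (exact binomial for shares and for ratios of counts, log intervals for ratios of shares) cover counting error only, not the variation between mice. In bulk sums of this kind, fewer transcripts per cell and fewer cells that express a gene cannot be told apart. Library totals ran from 158570946 to 197176873 UMIs. The members together held 177722, 705151 and 556576 UMIs, so that 1 UMI was worth 5.63, 1.42 and 1.80 CPM (a gene's UMIs per 1000000 UMIs summed over the members of that library). Members held a median of 4919, 7238.5 and 7960 UMIs, against 3385, 2898 and 2886 for the resting NK barcodes, those of the same gate with no Mki67 or Top2a UMI (499, 781 and 1297 barcodes). No barcode sequence was shared between the members of any pair of libraries, although 137 to 180 kept barcodes were shared per pair.

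A minority of members stood apart. Transcripts of KP1 tumor cells (at least 3 UMIs of the tumor list), of antigen-presenting cells (at least 10 UMIs of the MHC class II genes H2-Aa, H2-Ab1 and Cd74) or of B cells (at least 5 UMIs of the B cell list) were present in 5, 4 and 9 members, which was 20%, 4.35% and 13.2% of barcodes and 24.2%, 7.88% and 23.1% of member UMIs. In resting NK barcodes the same transcripts were present in 2.61%, 1.79% and 1.85%. Whether these barcodes are doublets was not tested, and a doublet caller (Scrublet) marked 2, 2 and 2 of them among 4, 7 and 2 members marked in all. The main list results between libraries are therefore given with and without these barcodes. Leaving them out keeps 20, 88 and 59 members, which are called the filtered members below. Ratios of members over resting NK barcodes use all members.

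The filter lowered the tumor and dendritic lists in each library, the neutrophil list in all but the first and the B cell list mainly in the first, and the macrophage list less and not in the first. The summed level of the KP1 tumor list in the members was 287, 87.9 and 129 CPM, with Meg3 at 0 in each library, against 10.5, 24.4 and 23.5 CPM in resting NK barcodes and 0, 6.16 and 7.01 CPM in filtered members. The dendritic list stood at 309, 427 and 2476 CPM, nearly all of it the 3 MHC class II genes, with the dendritic gene Flt3 at 0 in the first 2 libraries. The B cell list stood at 107, 22.7 and 23.4 CPM. The macrophage list stood at 67.5, 65.2 and 128 CPM with Ms4a7 at 0 throughout, and the neutrophil list at 11.3, 35.5 and 126 CPM with Retnlg and Cxcr2 at 0 throughout, most of the last value being Il1b (68 of 70 UMIs). In filtered members the dendritic list stood at 81.7, 111 and 136 CPM, the B cell list at 29.7, 24.6 and 18.7 CPM, the macrophage list at 74.3, 50.8 and 98.2 CPM and the neutrophil list at 14.9, 13.9 and 14.0 CPM.

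**Figure D1:**
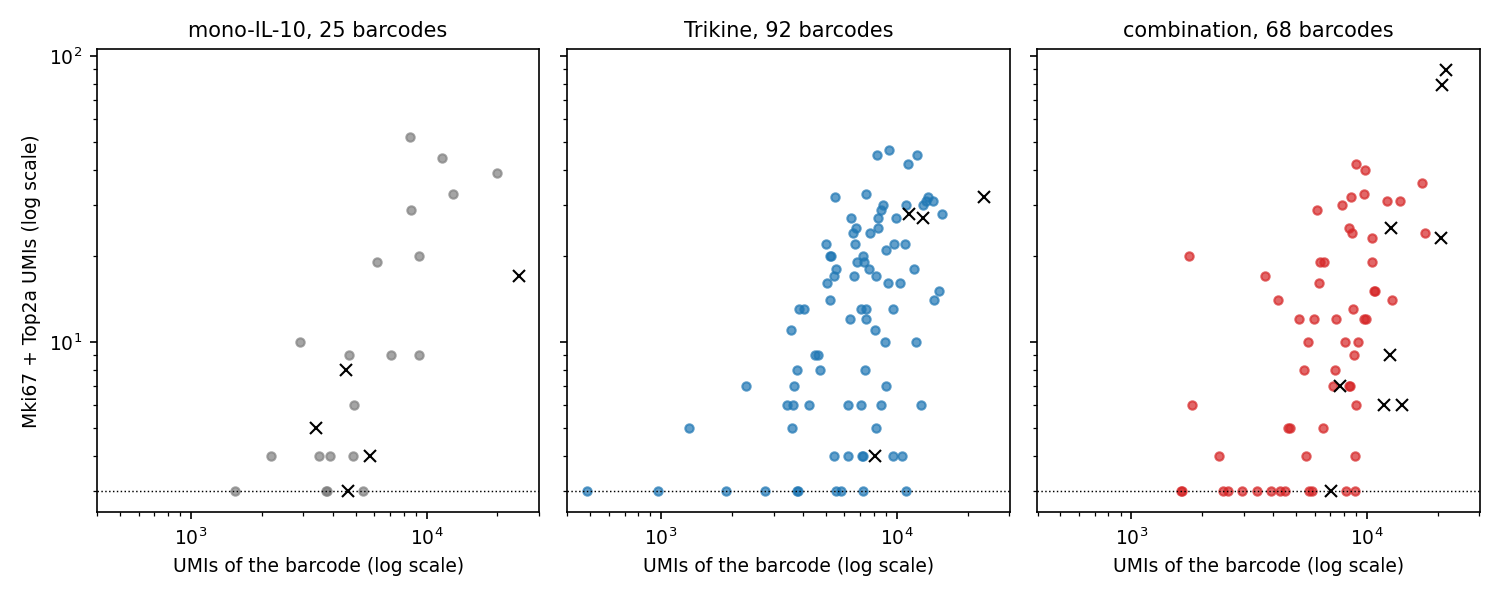
Each point is a member barcode, by its total UMIs (x, log scale) and its summed Mki67 and Top2a UMIs (y, log scale), in 1 panel per library, and the dotted line is the minimum of 3 UMIs. Crosses mark the 5, 4 and 9 barcodes with tumor, MHC class II or B cell transcripts, of which 2, 4 and 7 lie above the median depth of their library, the deepest barcode of each library among them.

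The label was checked against NK genes the gate did not use. The gate's own NK sum had a median of 16, 14 and 14 UMIs per member and its Cd3 sum was 0 in 19 of 25, 64 of 92 and 47 of 68 members. Its T cell receptor sum was 0 in only 2 of 25, 21 of 92 and 20 of 68 members, with medians of 2, 2 and 1 UMIs. The gate itself limits both sums. Beyond the gate genes, Klrk1, the NKG2D receptor, was detected in 23, 84 and 67 members at 698, 584 and 557 CPM, where cycling T cell barcodes of the same libraries held 138, 209 and 199 CPM. Tyrobp, the DAP12 adaptor of activating NK receptors, was detected in 24, 84 and 66 members at 973, 930.3 and 974 CPM, against 38.9, 27.7 and 25.1 CPM in cycling T cell barcodes. These T cell barcodes were chosen to lie below the gate's NK receptor minimum, which can set part of this contrast in advance. Cycling barcodes that met that minimum but not the Cd3 limit were left out of them. The contrast therefore cannot set members apart from such barcodes. The same limit holds for the other comparisons of NK and T cell genes with cycling T cell barcodes. Eomes, the transcription factor that sets conventional NK cells apart from other innate lymphoid cells, was detected in 16, 52 and 28 members at 253, 206 and 135 CPM. The members thus held NK genes in each library, though unevenly. The 14 NK identity genes outside the gate made up a median of 181, 202 and 260 UMIs per 10000, from 12.1, 7.95 and 1.44 in the lowest member to 409, 641 and 450 in the highest. In the filtered members the lowest held 58.5, 7.95 and 46.3. Cycling T cell barcodes held 5496, 7688 and 7152 CPM over all 17 genes of that list. The lowest filtered members of the Trikine and combination libraries lay below that level. Other filtered Trikine members below it held 8.64, 40.3, 40.4, 41.6, 49.1, 53.3, 53.8, 62.8, 65.4, 70.5 and 74.2 UMIs per 10000.

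Markers of neighboring lymphocytes were present at low levels. The T cell list holds 6 genes whose UMIs the gate limits, so only its other 11 bear on the label. These stood at 281, 162 and 194 CPM in the members, against 188, 229 and 210 CPM in resting NK barcodes and 1682, 1278 and 1357 CPM in cycling T cell barcodes. Trbc1, a gate gene that NK cells are also known to transcribe, gave 18, 103 and 49 UMIs, while Cd4 gave 0, 3 and 5. The list of type 1 innate lymphoid and tissue-resident genes stood at 653, 547 and 390 CPM, with Zfp683 and Itgae at 0 for mono-IL-10. In the list of group 2 innate lymphoid cells (214, 235 and 212 CPM), Il13 and Il5 were at 0 throughout and most UMIs were Klrg1 and Gata3, which NK cells also express, and 1 Trikine member held at least 5 UMIs of Il1rl1. A cut at 2 Cd3 UMIs removed 91.5%, 92.9% and 89.6% of the 881, 3903 and 1709 barcodes that held NK receptors and Mki67 or Top2a, and the T cell receptor and myeloid limits removed more, so that the members were 2.84%, 2.36% and 3.98% of all cycling barcodes with NK receptor UMIs.

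Summed over members, division genes lay above resting NK barcodes in each library, which is what the gate chose and is given as a description with no test. Over all genes measured in members and resting NK barcodes of each library (at least 50 CPM in the higher population and 30 UMIs in the pair), 583 of 3629 (16.1%) were at least 1.5-fold higher and 604 (16.6%) at least 1.5-fold lower in members, by the mean of the 3 log2 ratios. All 29 measured S phase genes and 24 of 25 measured G2/M genes were in the higher class, with median log2 ratios of 2.63 and 3.02 against −0.08 for all genes. H3c3, a core histone, lay highest at a mean log2 ratio of 7.18, although near-identical histone copies can share reads. After it came Nusap1, a spindle protein, at 163, 247 and 278 CPM in members and 3.33, 2.52 and 2.35 in resting NK barcodes. Clspn, a replication checkpoint adaptor, was at 180.1, 289 and 189 against 2.22, 3.79 and 2.09 CPM, and Pclaf, a partner of the replication clamp PCNA, at 529, 1068 and 862 against 6.66, 12.6 and 11.0 CPM. Ccna2 (cyclin A2), Tpx2, Cdca8, Rrm2, Birc5 and Cenpf made up the rest of the 10 highest, with mean log2 ratios from 5.65 to 6.27. These levels lay near those of cycling T cell barcodes, in which Pclaf stood at 726, 997 and 842 CPM and Nusap1 at 199, 238 and 199 CPM.

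Promoters of such genes are shown because the gate genes and many of the measured S phase and G2/M genes hold the same short element, CCAAT. The 250 bases before the RefSeq start (GRCm38.p6, minus strand, written 5′ to 3′) follow for the gate genes Mki67 (chr7:135716380-135716629) and Top2a (chr11:99024190-99024439), for Cdk1 (chr10:69352913-69353162), the mitotic kinase, and for Cdca8 (chr4:124936918-124937167), a subunit of the chromosomal passenger complex. Capitals mark CCAAT or its reverse ATTGG, the letters of the box read by NF-Y, and TTTGAA or its reverse TTCAAA, the letters of the CHR element of mitotic promoters.
Mki67: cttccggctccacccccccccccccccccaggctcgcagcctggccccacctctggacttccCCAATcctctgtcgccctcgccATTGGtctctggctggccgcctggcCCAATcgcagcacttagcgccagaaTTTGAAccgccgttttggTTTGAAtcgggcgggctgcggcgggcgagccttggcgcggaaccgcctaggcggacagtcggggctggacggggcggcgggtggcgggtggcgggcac
Top2a: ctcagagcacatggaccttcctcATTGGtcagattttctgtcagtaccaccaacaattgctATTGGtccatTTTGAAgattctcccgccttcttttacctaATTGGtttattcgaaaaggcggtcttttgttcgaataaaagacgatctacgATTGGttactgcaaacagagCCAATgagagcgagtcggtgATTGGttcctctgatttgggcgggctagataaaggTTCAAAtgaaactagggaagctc
Cdk1: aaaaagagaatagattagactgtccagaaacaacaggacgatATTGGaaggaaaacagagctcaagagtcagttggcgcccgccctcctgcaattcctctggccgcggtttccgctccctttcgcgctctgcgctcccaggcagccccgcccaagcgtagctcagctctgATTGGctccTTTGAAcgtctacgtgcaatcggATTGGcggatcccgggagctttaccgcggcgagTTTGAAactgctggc
Cdca8: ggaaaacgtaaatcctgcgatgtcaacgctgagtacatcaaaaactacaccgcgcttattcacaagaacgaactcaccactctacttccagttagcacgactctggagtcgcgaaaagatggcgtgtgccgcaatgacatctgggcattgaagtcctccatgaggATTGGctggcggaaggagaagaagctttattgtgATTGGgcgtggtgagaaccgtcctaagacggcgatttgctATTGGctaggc
Mki67, Top2a and Cdk1 each held 2 matches of TTTGAA, with 3, 6 and 3 of CCAAT, and Cdca8 held 0 and 3. Of the 23 measured G2/M genes with a promoter in the table, 18 (78.3%) held CCAAT, 12 (52.2%) held TTTGAA and 10 (43.5%) held both. Of the 22 matched S phase genes, 77.3% held CCAAT, 18.2% TTTGAA and 9.09% both. Over all 27025 promoters in the table these shares were 37.5%, 18.3% and 6.45%, and over the 2858 matched genes measured here 40.1%, 13.1% and 5.60%. The matches are a description of these letters in these windows, on both strands, and no binding was measured.

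Cyclin-dependent kinases differed in how far they followed division. Cdk1 stood at 146, 224 and 199 CPM in members and 3.33, 6.73 and 2.35 CPM in resting NK barcodes, and Cdk4, the G1 kinase, at 203, 208 and 216 against 59.4, 74.9 and 55.9 CPM. Cdk2, which acts at the entry into S phase, was sparse at 67.5, 44.0 and 19.8 against 2.77, 9.68 and 4.97 CPM, from 12, 31 and 11 UMIs. Cdk9, a kinase of transcription elongation, lay at 124, 89.3 and 77.3 against 83.2, 74.0 and 72.7 CPM, and Cdk7 at 33.8, 15.6 and 28.7 against 34.4, 31.1 and 32.4 CPM, from 6, 11 and 16 UMIs. Cdk1 and Cdk4 were thus above the resting level in each library, while the ratios of Cdk7 and Cdk9 lay within 1.5-fold of 1 in all but 1 of 6 cases (Cdk7 in the Trikine library, at a log2 ratio of −1.0).

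Effector and receptor genes lay lower in members than in resting NK barcodes, as shares of all UMIs. The 6 measured cytokine and chemokine genes (of 15 listed) were all at least 1.5-fold lower, with a median log2 ratio of −1.48. In the NK identity list 8 of 14 measured genes were lower and none higher, with medians of −0.58, −0.55 and −0.63 in the single libraries. Ly49 receptors (4 of 5 lower), cytotoxic granule genes (6 of 11) and cytokine receptors (8 of 11) went the same way, with medians of −0.93, −0.64 and −0.75. These counts use all members, and part of the gap closed in filtered members. The granule list summed to 18754, 27200 and 27170 CPM in all members and 23380, 28755 and 33009 CPM in filtered members. Resting NK barcodes held 27798, 36970 and 34563 CPM. The cytokine and chemokine list stayed further below, at 11534, 6170 and 8227 CPM in filtered members against 18596, 19202 and 21781 CPM. Ccl9 lay lowest of all genes at 5.63, 22.7 and 23.4 CPM against 76.0, 85.4 and 113 CPM. Ccl4, a chemokine that attracts monocytes and T cells, stood at 1502, 484 and 212 against 3280.0, 1684 and 1059 CPM, and Prf1, the pore-forming perforin, at 1401, 1554 and 1430.2 against 2335, 2788 and 2558 CPM. Since the scale is a share of UMIs, the division genes that members add lower all other shares, and members also held more UMIs per barcode. The part of either in these values was not tested. Of 21 measured genes of oxidative phosphorylation, 5 were at least 1.5-fold higher and none lower, where 16.1% of all genes were higher. The other 16 lay within 1.5-fold, and the list median was 0.38 against −0.08 for all genes.

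**Figure D2:**
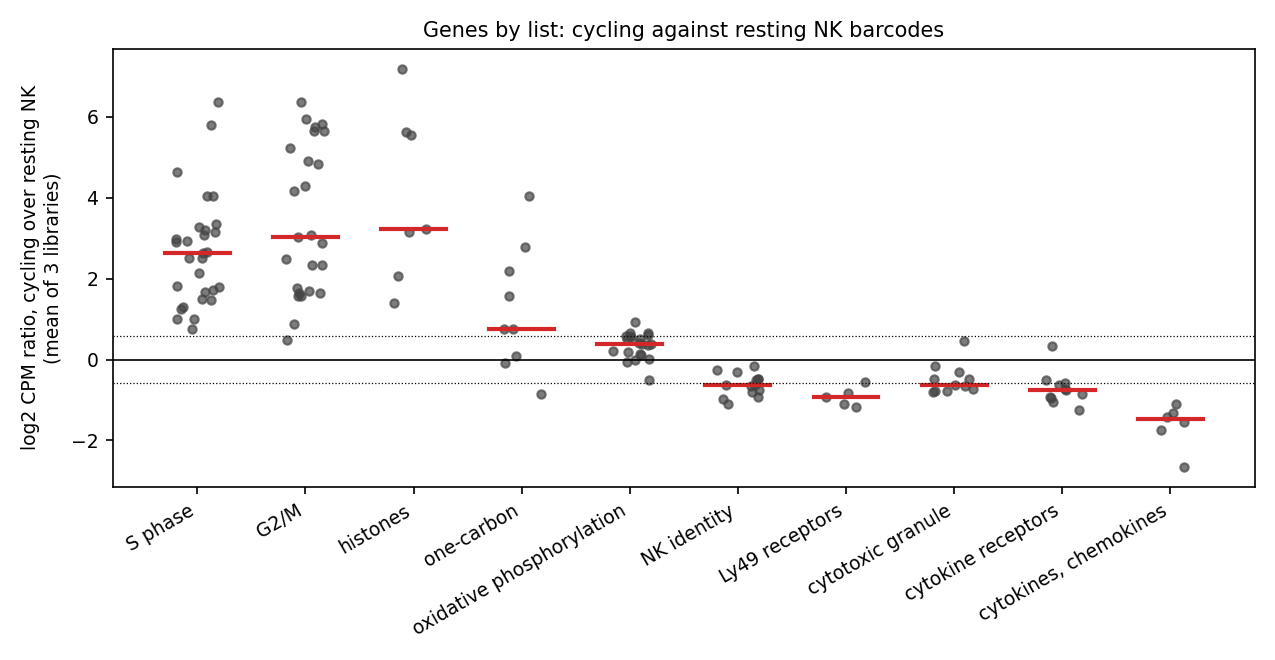
Each point is a measured gene of the list named on the x axis, by its log2 CPM ratio of cycling members over resting NK barcodes (y, mean of the 3 libraries), with the list median as a red bar and dotted lines at 1.5-fold. The measured S phase genes, 24 of 25 G2/M genes and the measured histone genes lie above the upper line, with list medians of 2.63, 3.02 and 3.24 in that order, and all 6 cytokine and chemokine genes lie below the lower line.

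The share of kept barcodes that were members was highest in the Trikine library. It was 0.112% (0.0728 to 0.166) for mono-IL-10, 0.405% (0.327 to 0.497) for the Trikine and 0.252% (0.196 to 0.320) for the combination. The ratio of Trikine to mono-IL-10 was 3.6 (2.32 to 5.60), and that of combination to Trikine was 0.622 (0.455 to 0.851). The filtered members gave ratios of 4.31 (2.65 to 7.00) and 0.565 (0.406 to 0.785). The intervals of the 3 shares do not overlap in the order Trikine, combination, mono-IL-10.

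Both the number of NK barcodes and the cycling part of them differed. The Cd3-negative NK gate with any Mki67 and Top2a level made up 2.91%, 4.52% and 5.96% of kept barcodes, a ratio of 1.56 (1.41 to 1.71) for Trikine over mono-IL-10 and 1.32 (1.22 to 1.42) for combination over Trikine. Members were 3.87% (2.52 to 5.66), 8.97% (7.29 to 10.9) and 4.23% (3.30 to 5.34) of that gate, with ratios of 2.32 (1.51 to 3.57) and 0.472 (0.349 to 0.640). The combination library thus had the largest NK share and a cycling part whose interval overlaps that of the mono-IL-10 library. Cycling T cell barcodes, which held fewer than 2 NK receptor UMIs, went in the same directions. As a share of kept barcodes their ratios were 2.31 (2.15 to 2.48) and 0.685 (0.647 to 0.725). Cycling barcodes with at least 2 UMIs of both Cd3 and NK receptor genes were left out of that set. They were 91.5%, 92.9% and 89.6% of the 881, 3903 and 1709 cycling barcodes with NK receptor UMIs.

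The size of the cycling ratios depended on the number of division UMIs asked for, with Trikine over mono-IL-10 at 1.57 (1.14 to 2.15) for a minimum of 2 and 3.15 (1.82 to 5.43) for 5, and combination over Trikine at 0.592 and 0.434. With each barcode thinned to 3000 UMIs before gating, any Mki67 or Top2a UMI was enough to pass. The ratios were then 1.91 (1.60 to 2.27) and 0.590 (0.516 to 0.675). That setting is not the same population at equal depth. The division minimum falls from 3 UMIs to 1, and the limits on Cd3 and T cell receptor UMIs act on fewer UMIs. In it 122, 346 and 247 barcodes pass in place of 25, 92 and 68. Both changes hold wherever the thinning to 3000 UMIs is named. No setting changed depth alone. With each NK barcode thinned to 1000 UMIs and any division UMI counted, the share with a Mki67 or Top2a UMI was 10.4% (65 of 627), 12.8% (125 of 975) and 8.23% (122 of 1482), after 19, 51 and 124 shallower barcodes were left out. Trikine over mono-IL-10 was then 1.24 (0.932 to 1.64), whose interval includes 1, and combination over Trikine was 0.642 (0.507 to 0.813). Barcodes of a neutrophil gate, which should lack division transcripts, gave 8.57% (3.21 to 17.7), 6.71% (3.27 to 12.0) and 6.45% (0.791 to 21.4) after the same thinning, at median depths of 2264, 1496 and 1677 UMIs before it. The thinned NK shares of the mono-IL-10 and combination libraries lay inside these background intervals and that of the Trikine library just above. The intervals rest on 6 of 70, 10 of 149 and 2 of 31 barcodes, too few to set such shares apart from the background. The neutrophil gate was not filtered for tumor, MHC class II or B cell transcripts. At the minimum of 3 UMIs without thinning, the neutrophil gate gave 4 of 74, 3 of 186 and 1 of 31 barcodes. These were 5.41% (1.49 to 13.3), 1.61% (0.334 to 4.64) and 3.23% (0.0816 to 16.7). The members' shares of the NK gate lay inside these intervals for mono-IL-10 (3.87%) and the combination (4.23%), and above for the Trikine (8.97%). The limits of the gate also weighed unequally. The T cell receptor limit removed 36.0%, 58.7% and 42.1% of the barcodes left by the Cd3 limit, most in the Trikine library. The myeloid limit then removed 47.9%, 19.3% and 34.0% of the rest, most in the mono-IL-10 library, while the myeloid gate genes stood at 1875, 864 and 1215 CPM in empty droplets. Without the myeloid limit the counts were 48, 114 and 103, and the ratios 2.33 and 0.761.

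**Figure D3:**
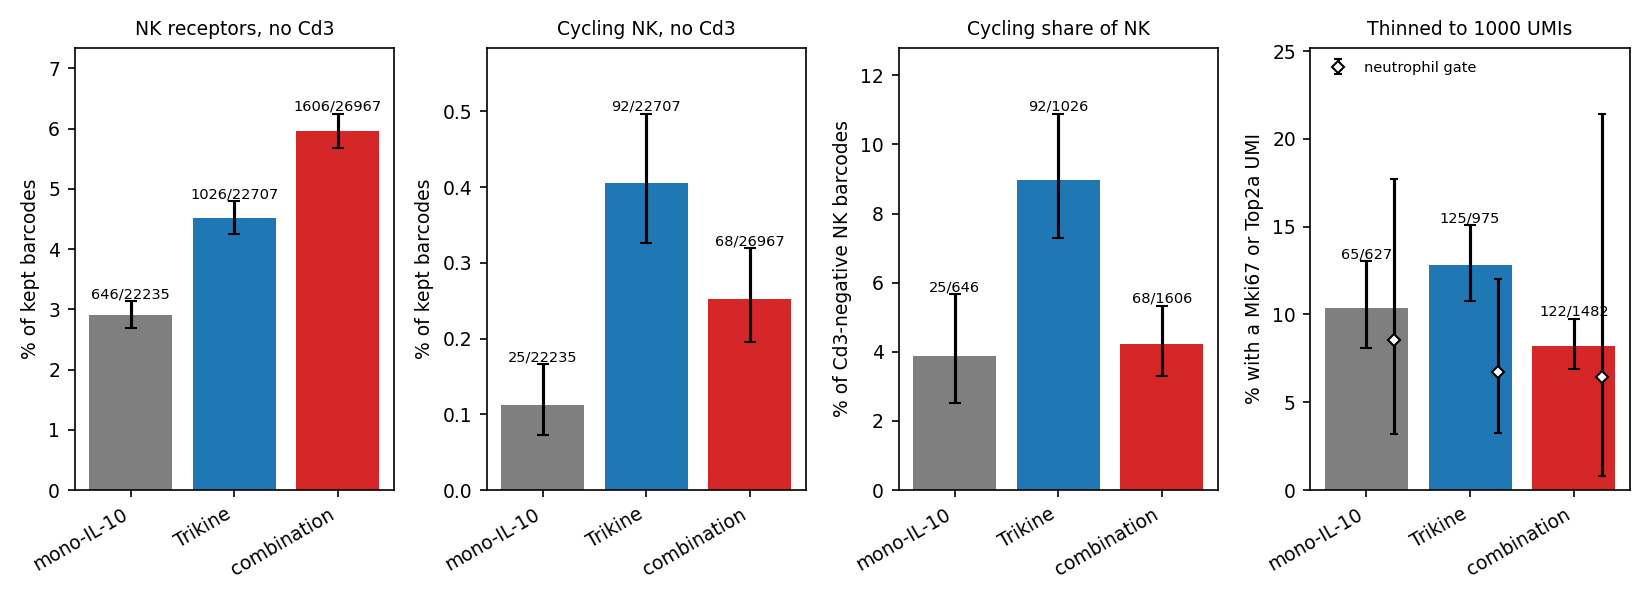
Bars give percentages per library with exact 95% intervals and the counts above them: the Cd3-negative NK gate and the members as shares of kept barcodes, the members as a share of that gate, and the share of NK barcodes with a Mki67 or Top2a UMI after thinning to 1000 UMIs, with a neutrophil gate as open diamonds. Members peak in the Trikine library at 0.405% of kept barcodes and 8.97% of the gate, and the thinned shares (10.4%, 12.8% and 8.23%) lie much nearer to each other.

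The members did not differ detectably between libraries in cycle phase at this number of barcodes. More G2/M than S phase UMIs were found in 64.0% (42.5 to 82.0), 68.5% (58.0 to 77.8) and 66.2% (53.7 to 77.2) of them, with 7, 6 and 4 barcodes near the point of equal UMIs, and in 76.8%, 83.9% and 78.8% of cycling T cell barcodes. The Mki67 and Top2a sum itself had medians of 8, 13.5 and 10 UMIs, from 3 to at most 52, 47 and 89. Just inside the threshold, the 5, 10 and 14 members with 3 such UMIs held S phase genes at 1310, 5707 and 4048 CPM, and just outside it the 24, 30 and 45 NK barcodes with 2 held 1453, 3863 and 3436 CPM, where resting NK barcodes held 1238, 1401 and 1281 CPM. In the mono-IL-10 library both edges lay near the resting level, and in the other 2 libraries both lay well above it.

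The comparison of the IL-10/2-Trikine with mono-IL-10 asks what recruiting the IL-2 receptor beta chain adds to an IL-10 signal. Trikine members held more transcripts of the granzymes Gzma, Gzmb and Gzmc and of the serpin Serpinb6b (but fewer of the serpin Serpinb9b) and more of the transcription factor Runx3. They held fewer transcripts of the chemokines Ccl3 and Ccl4, of the immediate early genes Jun, Fos and Zfp36 and of Cd69. NK identity genes as a group differed little. Of 4227 measured genes, 449 (10.6%) were at least 1.5-fold higher and 828 (19.6%) at least 1.5-fold lower. That split depends on the scaling, since TMM factors gave 888 higher and 453 lower and median-of-ratios factors 808 and 499, and the median log2 ratio over all genes moved from −0.10 to 0.16 and 0.11. A log2 ratio below therefore reads against −0.10, and those within about 0.3 of it have no stable sign. Filtered members gave 528 higher (13.0%) and 734 lower (18.0%) of 4068, while resting NK barcodes gave 48 (1.28%) and 214 (5.69%) of 3759. The minimum level can be met through the higher library alone, and 1 UMI of the 25 mono-IL-10 members weighed 5.63 CPM, so counts over the genes that passed it carry that bias.

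Cytotoxic granule genes lay higher in the Trikine members, with 5 of 12 measured (of 17 listed) at least 1.5-fold higher, none lower and a median log2 ratio of 0.55. Gzma, the granzyme with the most UMIs here, stood at 9324, 13940.3 and 14262 CPM, a ratio of Trikine to mono-IL-10 of 1.5 (1.42 to 1.58), and at 12313, 17890 and 15919.5 CPM in resting NK barcodes. Gzmb, the granzyme that starts apoptosis in target cells, stood at 3432, 5936 and 5715 CPM, a ratio of 1.73 (1.59 to 1.89), and at 5556, 8056 and 7211 CPM in resting NK barcodes. For both genes, the mono-IL-10 library was lowest in cycling and in resting NK barcodes alike, and the other 2 lay close together. Serpinb6b, of the serpin family that protects killer cells from their own granzymes, stood at 371, 705 and 557 CPM, a ratio of 1.90 (1.47 to 2.49), while Serpinb9b stood at 191, 41.1 and 128 CPM, a ratio of 0.215 (0.126 to 0.364). Prf1 and Nkg7, a granule membrane protein, did not follow, with ratios of 1.11 (0.966 to 1.28) and 1.02 (0.902 to 1.16). In the filtered members 2 of 12 granule genes remained past 1.5-fold, with a median of 0.37, and the ratios of Gzma and Gzmb were 1.29 and 1.41. With barcodes thinned to 3000 UMIs, where 122 and 346 pass, the list median was 0.02. Empty droplets held the list at 4852, 10947 and 13334 CPM, with the mono-IL-10 library lowest there too, and the part of free RNA in the members' values was not tested.

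Gzmc, a granzyme known from strongly activated killer cells, was the granule gene that differed most. It gave 0, 142 and 2 UMIs, in 0, 14 and 2 members, so that its level of 201 CPM in the Trikine members was at least 11.9-fold higher than in mono-IL-10 members by a floor of 3 UMIs per library. In the Trikine library, 40.8% of these UMIs came from 1 barcode. Resting NK barcodes held 12.8, 196 and 34.8 CPM, with the same library highest.

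Chemokines went the other way. Ccl3, which attracts monocytes, stood at 360.1, 49.6 and 52.1 CPM in members, a ratio of 0.138 (0.0886 to 0.211), and at 631, 207 and 113 CPM in resting NK barcodes. Ccl4 had a ratio of 0.322 (0.273 to 0.379) in members and 0.513 (0.493 to 0.534) in resting NK barcodes. Both were lower with the Trikine in cycling and in resting NK barcodes. Ccl5, which had the most UMIs of these chemokines, stood at 7174, 4744 and 6786 CPM in members, a ratio of 0.661 (0.620 to 0.706), while resting NK barcodes held 13548, 16556 and 19952 CPM with the mono-IL-10 library lowest. Xcl1, which attracts cross-presenting dendritic cells, stood at 270.1, 343 and 109.6 CPM, a ratio of 1.27 (0.929 to 1.77), and Ifng, the interferon that NK cells make, at 78.8, 59.6 and 14.4 CPM, a ratio of 0.756 (0.405 to 1.5). The intervals of these last 2 include 1. Over the cytokine and chemokine list, 1 of 6 measured genes (of 15) was higher and 3 were lower, with a median of −0.50, against 2 higher, 3 lower and −0.68 in filtered members and −0.93 in resting NK barcodes.

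**Figure D4:**
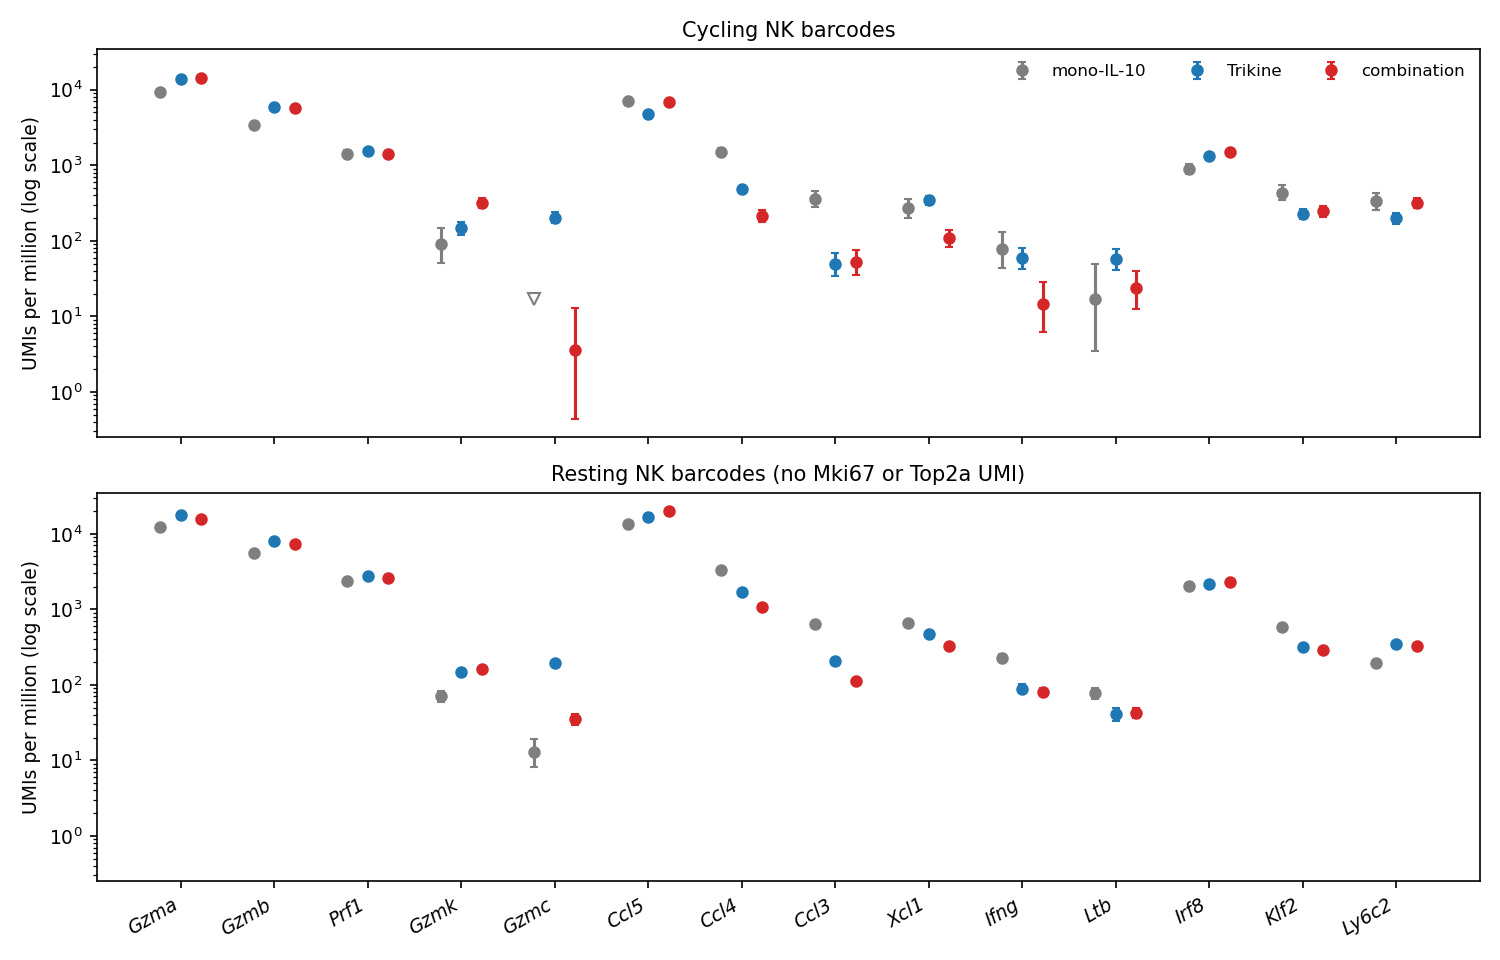
CPM (y, log scale) of 14 effector, cytokine and maturation genes in cycling members (upper panel) and resting NK barcodes (lower panel), 1 color per library, with 95% Poisson intervals and an open triangle at the floor of 3 UMIs where a library held none (Gzmc, mono-IL-10). In both panels Ccl3 and Ccl4 are highest in the mono-IL-10 library and Gzma and Gzmb are lowest there, while Ly6c2 and Ltb order the libraries differently in the upper and lower panels.

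Genes of NK maturation lay lower in the Trikine members by the median of their list, while resting NK barcodes showed both directions. The summed list differed less, at 2819, 2662 and 2974 CPM in members and 3298, 2806 and 3420 CPM in filtered members. In the list of mature NK genes 4 of 7 measured (of 11) were lower and 1 higher, with a median of −0.70, and −0.45 under TMM factors. Filtered members had 4 of 7 lower and none higher with a median of −0.87, and resting NK barcodes 3 of 9 higher and 3 lower with a median of −0.17. Itgam, the CD11b integrin chain of mature mouse NK cells, stood at 141, 63.8 and 75.5 CPM, a ratio of 0.454 (0.272 to 0.772). Klf2, a factor of quiescence and of exit from tissue, stood at 433, 225 and 244 CPM, a ratio of 0.520 (0.394 to 0.692), and its ratio in resting NK barcodes was 0.543 (0.494 to 0.598). Zeb2, a driver of terminal NK maturation, stood at 203, 125 and 113 CPM, a ratio of 0.616 (0.414 to 0.935). Irf8, which NK cells need to expand in viral infection, was the member of the list that lay higher, at 889, 1337 and 1480.5 CPM with a ratio of 1.5 (1.27 to 1.79), but its ratio was 1.33 in filtered members and its log2 ratio −0.27 with barcodes thinned to 3000 UMIs. Runx3, a factor of cytotoxic lineages, went with it at 248, 520.5 and 451 CPM and a ratio of 2.10 (1.53 to 2.94), while resting NK barcodes held 513, 501 and 621 CPM. Tcf7 of the immature list stood at 67.5, 78.0 and 14.4 CPM. Of the immature list, 2 of 8 measured genes (of 10) were higher and none lower, but its median of 0.36 was −0.12 with the division minimum at 2 UMIs.

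Receptors for MHC class I and for cytokines showed no common direction. Of 5 measured Ly49 genes outside the gate, 1 was higher and 1 lower, and the median of −0.21 was 0.04 under TMM factors. Klra3 stood at 61.9, 147 and 172 CPM and Klra5 at 253, 129 and 95.2 CPM, with ratios of 2.38 (1.28 to 4.92) and 0.510 (0.353 to 0.746). Klra7, which encodes the inhibitory Ly49G2, stood at 411, 418 and 399 CPM. Ly49 genes are near-identical copies that can share reads, and the 129 parent carries other Ly49 genes than the B6 reference, so single values are uncertain. Of 14 measured NKG2 and NKR-P1 genes (of 15), 1 was higher and 1 lower, with a median of −0.01. Among cytokine receptors, 1 of 12 measured (of 19) was lower and none higher.

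The receptor chains that the Trikine is built to engage, Il2rb, Il10ra and Il10rb, were detected in each library. So was Il2rg, the common gamma chain, which the mutated IL-2 arm of the Trikine does not bind. Il2rb stood at 523, 467 and 555 CPM and Il2rg at 298, 264 and 264 CPM, with ratios of 0.892 (0.706 to 1.13) and 0.884 (0.649 to 1.22). Of the IL-10 receptor, Il10rb stood at 73.1, 65.2 and 68.3 CPM and Il10ra, the chain that binds IL-10, at 33.8, 19.9 and 39.5 CPM, from 6, 14 and 22 UMIs. The intervals of Trikine over mono-IL-10 include 1 for each chain named (Il10ra 0.588 (0.212 to 1.87), Il10rb 0.892 (0.474 to 1.80)), and combination over Trikine was 1.99 (0.974 to 4.21) for Il10ra. Il2ra, the alpha chain induced by STAT5, gave 1, 30 and 12 UMIs, a ratio of 7.56 (1.26 to 308), and fell short of the minimum level. Genes known to respond to IL-2 and STAT5 did not move together, as 5 of 18 measured (of 27) were higher and 4 lower, with a median of −0.41, and −0.16 under TMM factors. In filtered members 4 of 17 were higher and 9 lower, with a median of −0.59. A list of 10 STAT5 genes from the study, which the study used for a pancreatic tumor model and which includes Gzma, Gzmb, Prf1 and Nkg7, had 2 of 9 measured higher and none lower with a median of 0.15, and none of 9 past 1.5-fold in filtered members with a median of −0.09. Cish, a feedback inhibitor that STAT5 induces, stood at 39.4, 51.1 and 39.5 CPM, Socs1 at 78.8, 108 and 93.4 CPM, Pim1, a kinase, at 675, 491 and 415 CPM and Bcl2, which sustains survival, at 304, 194 and 235 CPM. Their ratios were 1.30 (0.569 to 3.45), 1.37 (0.768 to 2.62), 0.727 (0.589 to 0.902) and 0.639 (0.463 to 0.893). Of the STATs, Stat3 stood at 574, 619.7 and 555 CPM and Stat5b at 61.9, 53.9 and 57.5 CPM, with ratios of 1.08 (0.869 to 1.35) and 0.871 (0.436 to 1.89).

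Checkpoint and costimulatory genes differed in both directions. Ctla4 stood at 95.7, 243 and 151 CPM, a ratio of 2.54 (1.54 to 4.45), and Tnfrsf18, the GITR receptor, at 28.1, 105 and 52.1 CPM, a ratio of 3.73 (1.53 to 11.8). Both lay above the mono-IL-10 members and differed less in resting NK barcodes, at 148, 183 and 133 and 93.8, 99.7 and 119 CPM. Cd69, an activation and retention marker, was lower instead, at 422, 140.4 and 147 CPM with a ratio of 0.333 (0.244 to 0.455). Pdcd1, which encodes PD-1, gave 0, 16 and 2 UMIs. The list had 5 of 7 measured genes (of 16) higher and 2 lower with a median of 0.77, which was 0.27 in the filtered members and −0.25 without the myeloid limit.

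Immediate early genes were high in the mono-IL-10 members. Jun stood at 388, 76.6 and 137 CPM, Fos at 456, 111 and 216 CPM and Zfp36, which shortens the life of cytokine transcripts, at 253, 58.1 and 95.2 CPM. Their ratios of Trikine to mono-IL-10 were 0.197 (0.136 to 0.286), 0.243 (0.176 to 0.335) and 0.230 (0.147 to 0.359), and Dusp1, a phosphatase of MAP kinases, had 0.368 (0.293 to 0.464). Resting NK barcodes showed the same direction for each, with Jun at 378, 90.5 and 91.5 CPM. Of the list of early response and heat shock genes, 7 of 19 measured (of 23) were lower and none higher in members, 7 of 18 were lower and 2 higher in filtered members, and 9 of 20 were lower in resting NK barcodes. These genes are known to respond to tissue dissociation, whose part was not tested.

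S phase genes lay somewhat higher per UMI in the Trikine members, and G2/M genes in all but not in filtered members. Of 37 measured S phase genes (of 41), 10 were higher and 2 lower with a median of 0.31, and of 41 measured G2/M genes (of 49), 10 were higher and 3 lower with a median of 0.20. In filtered members the S phase list had 15 of 37 higher and 2 lower with a median of 0.51, and the G2/M list 4 of 41 higher and 4 lower with a median of 0.10. Rrm2, a subunit of ribonucleotide reductase, stood at 264, 452 and 264 CPM with a ratio of 1.71 (1.26 to 2.38), Gmnn, which blocks repeated replication, at 107, 249.6 and 201 CPM with 2.33 (1.45 to 3.97), and Cdk1 had a ratio of 1.53 (1.01 to 2.42). Mcm2, a subunit of the replicative helicase, went the other way with 0.548 (0.373 to 0.818), but had a log2 ratio of 0.58 with barcodes thinned to 3000 UMIs. Cdkn1a, the p21 inhibitor of cyclin-dependent kinases, stood at 107, 245 and 221 CPM with 2.29 (1.43 to 3.90). Cdk2, Cdk4, Cdk7 and Cdk9 had ratios of 0.651 (0.325 to 1.39), 1.03 (0.711 to 1.53), 0.462 (0.157 to 1.52) and 0.722 (0.438 to 1.23), whose intervals all include 1. With the division minimum at 5 UMIs, which leaves 15, 75 and 51 members, the list medians were −0.03 for S phase and 0.01 for G2/M.

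Genes with the most extreme ratios often rested on few barcodes. The 10 lowest in the Trikine members included Map1b, Mycl, Uchl1, Dpp10, Cadps2, Trit1 and Eya1, for which 75.0% to 100% of the mono-IL-10 UMIs came from 1 barcode, and the B cell factor Ebf1, with 30, 0 and 0 UMIs in 4, 0 and 0 members. In filtered members, where these were left out, Ccl3 was the lowest with a ratio of 0.113 (0.0728 to 0.174). Among the highest, Cops6, Gzmc, 1700017B05Rik, Ap1s2, Atp2c1, Abcb9 and H2bc4 had 0 to 2 UMIs in the mono-IL-10 members. Hilpda, a lipid droplet protein induced by hypoxia, stood at 28.1, 156 and 64.7 CPM with a ratio of 5.54 (2.31 to 17.4), and Tfam, which maintains mitochondrial DNA, at 39.4, 165 and 79.1 CPM with 4.18 (1.96 to 10.6). The last 2 kept ratios of 4.77 and 3.73 in the filtered members.

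The second comparison, of the combination with the Trikine alone, addresses the addition of PD-1 blockade. Combination members held more interferon-response transcripts (Isg15, Cxcl10) and more Gzmk. They held fewer transcripts of Gzmc, Ccl4, Xcl1 and Ifng, and fewer of Tcf7 and Il18r1. Granzymes A and B, perforin and the division genes as groups differed little. Of 3948 measured genes, 280 (7.09%) were at least 1.5-fold higher and 215 (5.45%) at least 1.5-fold lower, with 263 and 247 under TMM factors and an all-gene median between −0.03 and −0.06 under each scaling. Filtered members gave 217 higher (5.61%) and 255 lower (6.59%) of 3869, and resting NK barcodes 103 (2.84%) and 29 (0.800%) of 3625. The direction with the larger count thus differed between all and filtered members. Both comparisons use the same Trikine members.

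**Figure D5:**
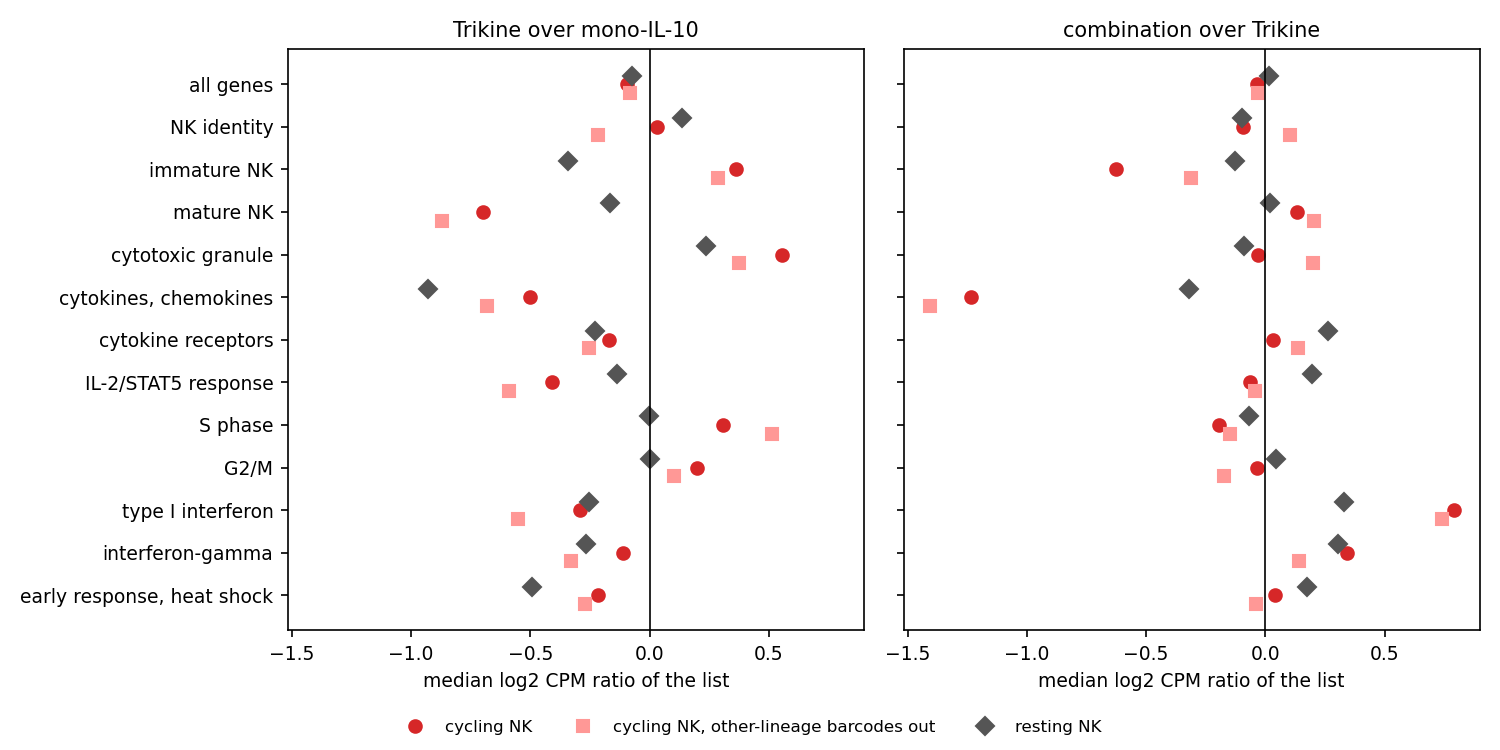
Median log2 CPM ratio (x) of the measured genes of each list (y) for Trikine over mono-IL-10 (left) and combination over Trikine (right), in cycling members (circles), filtered members (squares) and resting NK barcodes (diamonds), for lists with at least 4 measured genes. Cytotoxic granule genes lie at 0.55 on the left and −0.03 on the right, cytokine and chemokine genes at −0.50 and −1.23, and type I interferon genes at 0.79 on the right.

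Interferon-response genes lay higher with the combination than with the Trikine alone. Of type I interferon genes, 5 of 6 measured (of 27) were higher and none lower, with a median log2 ratio of 0.79, and 3 of 4 were higher in filtered members with a median of 0.74. The summed level of the list was 630.2, 502 and 789 CPM in members and 1558, 839.6 and 1377 CPM in empty droplets, in the same order of the Trikine and combination libraries, and the part of free RNA was not tested. In filtered members the sum was 772, 476 and 690 CPM, with the mono-IL-10 library highest. Resting NK barcodes held 859.4, 671 and 859.5 CPM, with the mono-IL-10 and combination libraries level. Isg15, a ubiquitin-like product of interferon signaling, stood at 56.3, 58.1 and 115 CPM in members, a ratio of combination to Trikine of 1.98 (1.32 to 3.00), and at 83.8, 78.7 and 149 CPM in resting NK barcodes. For Isg15 the combination library was highest in members and in resting NK barcodes. Many genes of the list were too sparse to measure, with Ifit1 at 0, 0 and 1 and Ifit3 at 2, 0 and 1 UMIs. Of interferon-gamma response genes, 5 of 21 measured (of 27) were higher and 1 lower with a median of 0.34, and 2 of 19 and 1 of 19 in filtered members with a median of 0.14. The summed level of that list in filtered members was 11118, 9029 and 10286 CPM.

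Some of these genes followed the barcodes with transcripts of other cells. Cxcl10, a chemokine induced by interferon, stood at 16.9, 44.0 and 329 CPM, a ratio of 7.48 (5.09 to 11.3), from 3, 15 and 13 members. It kept a ratio of 5.71 (3.76 to 8.92) in filtered members and stood at 63.2, 30.7 and 97.8 CPM in resting NK barcodes. With no Cd3 or T cell receptor UMI allowed, which left 17 and 16 members, its log2 ratio was −0.91. Cxcl9, the highest gene of this comparison, gave 0, 1 and 67 UMIs, and 83.6% of those in the combination came from 1 barcode. Psmb9, an immunoproteasome subunit, had a ratio of 1.56 (1.30 to 1.87) in all members and 1.27 in filtered ones. The remaining genes among the 10 highest (Il1r2, Kcnip4, Ctsh, Bnip3, Cd300a, Pkib, Alox5ap, Spi1 and Cd86) include several known from myeloid cells, and stood at 0 to 14.0 CPM in the filtered combination members.

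Granule genes did not move as a group, with 1 of 12 measured higher, 1 lower and a median of −0.03. Gzma and Gzmb had ratios of combination to Trikine of 1.02 (0.993 to 1.05) and 0.963 (0.919 to 1.01), and Prf1 of 0.920 (0.839 to 1.01). Gzmk, a granzyme with a trypsin-like cut, was the higher one at 90.0, 146 and 316 CPM, a ratio of 2.16 (1.69 to 2.79) in all and 2.48 (1.93 to 3.21) in filtered members, and resting NK barcodes held 70.5, 146 and 159.7 CPM. Gzmc was the lower one, with 142 UMIs in 14 Trikine members and 2 UMIs in 2 combination members, a ratio of 0.0178 (0.00214 to 0.0657). The order of Gzmc was the same in resting NK barcodes at 12.8, 196 and 34.8 CPM. With each barcode thinned to 3000 UMIs before gating, which takes in 346 and 247 barcodes, the log2 ratios were 0.13 for Gzmc and −0.04 for Gzmk in place of −5.81 and 1.11.

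Most measured cytokine and chemokine genes were lower in the combination members, with 4 of 6 lower, none higher and a median of −1.23. The summed level of the list went the other way. It was 5840 CPM in Trikine and 7255 CPM in combination members, and 6170 and 8227 CPM in filtered members. Filtered members had 5 of 6 lower and 1 higher with a median of −1.41, and the median of resting NK barcodes was −0.32. Ccl4 had a ratio of 0.438 (0.353 to 0.542) in members and 0.629 (0.602 to 0.657) in resting NK barcodes. Xcl1 had a ratio of 0.319 (0.237 to 0.424), and 62.3% of the combination UMIs came from 1 barcode. Ifng gave 14, 42 and 8 UMIs in 7, 16 and 5 members, a ratio of 0.241 (0.0979 to 0.520), and 54.8% of its Trikine UMIs came from 1 barcode. With no Cd3 or T cell receptor UMI allowed, its log2 ratio was 1.26. Ccl5 was higher at a ratio of 1.43 (1.37 to 1.5), short of 1.5-fold. The median of the list had the other sign, 0.18 and 0.19, when barcodes were thinned to 3000 UMIs or the myeloid limit was dropped. Ccl4 was at log2 0.88 without that limit, and Xcl1 at log2 0.16 with the division minimum at 2 UMIs.

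Genes of less mature NK cells were lower with the combination in members, and differed little in resting NK barcodes. In the immature list 4 of 8 measured genes were lower and none higher, with a median of −0.63. In filtered members 3 of 7 were lower, with a median of −0.31. Resting NK barcodes had none of 7 past 1.5-fold, with a median of −0.13. Themis lay beside Tcf7 among the lowest genes, at log2 ratios of −2.55 in members and −2.61 in filtered members. The part of T cells that passed the gate in these values was not tested. Tcf7, the TCF-1 factor of early and memory-like lymphocytes, had 12, 55 and 8 UMIs and a ratio of 0.184 (0.0758 to 0.389), while resting NK barcodes held 139, 68.6 and 75.0 CPM. Ltb, a lymphotoxin chain, gave 3, 40 and 13 UMIs and a ratio of 0.412 (0.202 to 0.786). Il18r1, the receptor for the co-activating cytokine IL-18, stood at 163, 122 and 55.7 CPM with a ratio of 0.457 (0.293 to 0.696), and at 333, 224 and 199 CPM in resting NK barcodes. Klrb1f, an NKR-P1 receptor, had 0.479 (0.332 to 0.680). Tfrc, the transferrin receptor that dividing cells use to take up iron, gave 6, 40 and 7 UMIs with a ratio of 0.222 (0.0838 to 0.5), and Myc, a driver of growth, gave 6, 26 and 4, with 0.195 (0.0494 to 0.562). Among mature NK genes 2 of 8 were higher and none lower, Ly6c2 with 1.57 (1.25 to 1.98) and a median of 0.13 for the list.

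Few other receptor and division genes passed 1.5-fold between these libraries. NK identity genes had 1 of 14 lower and none higher with a median of −0.09, NKG2 and NKR-P1 genes 1 of 13 lower and none higher with a median of −0.29 and 1 of 13 above 0 (−0.14 in filtered members), Ly49 genes none of 5 past 1.5-fold, and IL-2/STAT5 response genes 2 of 17 lower with a median of −0.06. Il2rb and Il10rb had ratios of 1.19 (1.02 to 1.39) and 1.05 (0.663 to 1.64). S phase genes had 4 of 37 lower and none higher with a median of −0.19, where Rrm2 had a ratio of 0.584 (0.477 to 0.712) and Cdk2 of 0.450 (0.204 to 0.919) from 12, 31 and 11 UMIs. G2/M genes had 3 of 42 higher and none lower with a median of −0.03, but in filtered members 3 of 41 were lower and none higher with a median of −0.17. Ube2c, which feeds the anaphase-promoting complex, had 1.66 (1.38 to 2.00) in all members and 1.10 in filtered ones. Cdk1, Cdk4, Cdk7 and Cdk9 had ratios of 0.890 (0.692 to 1.14), 1.03 (0.806 to 1.33), 1.84 (0.803 to 4.39) and 0.865 (0.573 to 1.29). Tnfrsf18 and Ctla4, which were higher in Trikine than in mono-IL-10 members, were lower in combination than in Trikine members. Their ratios were 0.497 (0.312 to 0.772) and 0.622 (0.473 to 0.813).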

How the data were processed

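Droplet libraries (3′ chemistry) of CD45+ cells sorted from KP1 tumors, 1 per group, were read from matrices of unnormalized UMI counts per gene and barcode, as deposited by the authors. The authors counted reads with Cell Ranger, introns included. The version in the matrix header, 8.0.0, differs from that in the methods, and so does the genome build, mm10 in the processing notes and a later one in the methods, so gene coordinates are given only for RefSeq promoters of GRCm38.p6. Each matrix lists 33696 genes and all droplets, empty ones included. Groups came from sample titles and treatment labels.

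The barcode filter was 200 genes and 20% mitochondrial UMIs and removed 72, 35 and 51 barcodes for mitochondrial UMIs, and the members were gated as described. No doublet was removed. Scrublet (scanpy 1.11.5, expected rate 8%) marked 14.8%, 17.2% and 4.82% of kept barcodes and served as an alternative. The members, and most of the 36 gene lists, were chosen with earlier results of these data known, so no pattern given here is independent support for those results.

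UMIs were summed over members per library and scaled to 1000000 (CPM). A gene was measured when the library with more of it reached 50 CPM and the pair 30 UMIs, and called at 1.5-fold. A count of 0 was replaced by 3 counts for a bound. The designs allow no test, so shares carry Clopper-Pearson 95% intervals, CPM ratios exact conditional binomial ones and share ratios log intervals. Named genes were the 10 highest and 10 lowest ratios per comparison (leaving out genes of the gate, of mitochondria, ribosomes, hemoglobin, antigen receptors and the Y chromosome, and Xist), list members with the most extreme ratios or highest CPM, and Cdk1, Cdk2, Cdk4, Cdk7 and Cdk9. Some genes are not reported here. Barcodes were thinned with random seed 1. Cycling T cell barcodes held at least 2 Cd3 UMIs, fewer than 2 NK receptor UMIs and at least 3 of Mki67 and Top2a. The neutrophil gate held at least 20 UMIs of S100a8 and S100a9. The scripts were tested on simulated data. Alternatives changed the gate thresholds, depth, doublets, scaling (edgeR 4.0.16 TMM factors in R 4.3.3, and median-of-ratios factors), weighting of cells and filters on low counts. Python 3.11.15, numpy 2.4.6, scipy 1.17.1, pandas 2.3.3 and matplotlib 3.10.9 were used.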

Additional observations from a re-analysis of the deposited data

Results flagged for a closer look

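In 5 of the list and named genes measured in members, filtered members and resting NK barcodes, members and resting NK barcodes of the same libraries lay on opposite sides of equality, each by at least 1.5-fold and with every counting interval off 1. The difference between the 2 populations was not tested, since each group is 1 library. These genes were picked for meeting that rule in these same data, over both comparisons. The number of genes screened is not given here, so their count is a description only. Klra5, a Ly49 receptor gene, had a log2 CPM ratio of Trikine over mono-IL-10 of -0.97 in members (253, 129 and 95.2 CPM in the 3 libraries) and 0.78 in resting NK barcodes (144, 248 and 273 CPM). It had -1.05 in filtered members and 0.12 with barcodes thinned to 3000 UMIs. That setting lets more barcodes past the T cell limits and has a lower division minimum. Ly6c2, a Ly6C chain found on mature NK cells, had -0.73 in members (332, 200.0 and 314 CPM), 0.84 in resting NK barcodes (192, 343 and 323 CPM), -0.87 in filtered members and 0.084 after that thinning, so that both genes lost the opposite direction there. Serpinb9b, a serpin of killer cells, had -2.22 in members (191, 41.1 and 128 CPM, from 7, 12 and 11 members), 0.60 in resting NK barcodes (259.6, 394 and 320.2 CPM) and -2.32 in filtered members. Ltb had 1.75 in members from 3, 40 and 13 UMIs, and -0.93 in resting NK barcodes at 77.7, 40.8 and 42.6 CPM. With 3 UMIs in the mono-IL-10 members, the interval of its ratio ran from 1.07 to 17.0. Fos had a log2 ratio of combination over Trikine of 0.96 in members (456, 111 and 216 CPM), -0.68 in resting NK barcodes (344, 159 and 99.6 CPM) and -1.23 in filtered members, so its direction in members turned when the barcodes with transcripts of other cells were left out.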

How the results depend on the processing

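No paired analysis was possible because each group holds 1 library, all numbered replicate 1. For the same reason no replicate could be left out. The member shares kept their directions in all 10 alternatives, with ratios of Trikine over mono-IL-10 from 2.33 to 8.32, the highest with no Cd3 or T cell receptor UMI allowed, which left 2, 17 and 16 members, and of combination over Trikine from 0.565 to 0.792. The interval of the latter included 1 with the division minimum at 2 UMIs (0.604 to 1.01) and with no Cd3 or T cell receptor UMI allowed (0.401 to 1.57). The exclusion of barcodes with transcripts of other cells and the removal of the myeloid limit were chosen after seeing the data. Depth limits the mono-IL-10 members most, where a gene with 0 UMIs may stand at up to 16.9 CPM. The values that moved past the counting interval of the reported ones, or past 1.5 times a reported count, or that turned around, follow, and their causes were not tested beyond what each setting sets by construction.

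With the division minimum at 2 UMIs, Trikine over mono-IL-10 gave list medians of −0.12 for immature NK, −0.63 for cytokine receptor and 0.64 for S phase, and log2 ratios of −0.062 for Stat4. With the division minimum at 2 UMIs, combination over Trikine gave list medians of −0.15 for G2/M, and log2 ratios of 0.16 for Xcl1. With that minimum at 5 UMIs, Trikine over mono-IL-10 gave list medians of −0.032 for S phase and 0.0053 for G2/M. With that minimum at 5 UMIs, combination over Trikine gave list medians of −0.15 for cytotoxic granule. With no Cd3 or T cell receptor UMI allowed, Trikine over mono-IL-10 gave a ratio of 8.32 for the member share and a ratio of 4.92 for the cycling fraction, 164 genes higher and 127 genes lower, list medians of −0.53 for S phase, 0 for G2/M and −0.51 for interferon-gamma, and log2 ratios of −0.026 for Cdk1, −0.26 for Cdkn1a, 0.47 for Dusp1, 1.03 for Klf2, 0.39 for Klra4, −0.97 for Ltb and −0.044 for Stat4. With no Cd3 or T cell receptor UMI allowed, combination over Trikine gave 338 genes lower, list medians of −0.78 for NK identity, −0.57 for mature NK, −0.86 for NKG2 and NKR-P1, −0.98 for cytotoxic granule, −0.32 for IL-2/STAT5, −0.49 for S phase, 0.46 for G2/M and 0.54 for interferon-gamma, and log2 ratios of 1.67 for Cdk2, −0.91 for Cxcl10, 1.26 for Ifng and −1.14 for Ly6c2. With barcodes thinned to 3000 UMIs, Trikine over mono-IL-10 gave 514 genes lower, list medians of −0.38 for NK identity, −0.26 for immature NK, 0.019 for cytotoxic granule, −0.49 for cytokine receptor, −0.58 for IL-2/STAT5, 0.94 for S phase, 0.59 for G2/M, −0.51 for interferon-gamma and −0.0043 for checkpoint, and log2 ratios of 0.44 for Cadps2, 0.95 for Cdk2, −0.27 for Irf8, −0.16 for Klra3, 0.12 for Klra5, 0.084 for Ly6c2, 2.02 for Map1b, 0.58 for Mcm2, 1.80 for Mycl, −0.36 for Stat4, 0.92 for Trit1 and 0.74 for Uchl1. With barcodes thinned to 3000 UMIs, combination over Trikine gave 82 genes higher and 43 genes lower, list medians of 0.16 for NK identity, −0.0042 for NKG2 and NKR-P1, 0.18 for cytotoxic granule, 0.18 for cytokine and chemokine and −0.34 for G2/M, and log2 ratios of −0.41 for Cd300a, −0.058 for Cd86, −1.63 for Cxcl9, 0.16 for Eomes, −0.14 for Fos, 0.13 for Gzmc, −0.042 for Gzmk, −1.72 for Il1r2, −0.079 for Jun, −0.18 for Ube2c, 0.18 for Xcl1 and −0.032 for Zfp36. In filtered members, Trikine over mono-IL-10 gave list medians of −0.59 for IL-2/STAT5 and 0.51 for S phase. In filtered members, combination over Trikine gave list medians of 0.10 for NK identity, 0.20 for cytotoxic granule, −0.15 for S phase and −0.17 for G2/M, and log2 ratios of −0.98 for Cd86, −1.23 for Fos and −0.044 for Zfp36. Without the myeloid limit, Trikine over mono-IL-10 gave list medians of 0.53 for NK identity, 0.55 for NKG2 and NKR-P1, 1.09 for cytotoxic granule, 0.29 for cytokine receptor, 0.52 for S phase and −0.25 for checkpoint, and log2 ratios of −0.41 for Atp2c1 and 0.019 for Ccl5. Without the myeloid limit, combination over Trikine gave list medians of −0.15 for cytotoxic granule and 0.19 for cytokine and chemokine, and log2 ratios of 0.88 for Ccl4. Under TMM factors, Trikine over mono-IL-10 gave 888 genes higher and 453 genes lower, and list medians of 0.80 for cytotoxic granule and 0.56 for S phase. Under median-of-ratios factors, Trikine over mono-IL-10 gave 808 genes higher and 499 genes lower, and list medians of 0.51 for S phase. With the mean of single-barcode CPM, Trikine over mono-IL-10 gave 735 genes higher, list medians of −0.13 for immature NK and 0.72 for S phase, and log2 ratios of 0.77 for Cdk7. With the mean of single-barcode CPM, combination over Trikine gave 359 genes lower, and list medians of −0.16 for G2/M. With no filter on low counts, Trikine over mono-IL-10 gave 1410 genes higher and 3558 genes lower. With no filter on low counts, combination over Trikine gave 2333 genes higher and 1634 genes lower. With at least 100 UMIs in the pair, Trikine over mono-IL-10 gave 147 genes higher and 146 genes lower. With at least 100 UMIs in the pair, combination over Trikine gave 75 genes higher and 73 genes lower.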

Other observations

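Over all genes, 16.1% were at least 1.5-fold higher and 16.6% lower in members than in resting NK barcodes. Of genes of glycolysis and hypoxia, 3 of 11 measured were higher and 1 lower, near these shares, with library medians of 0.02, 0.45 and 0.84 on the log2 scale. Ldha, lactate dehydrogenase A, stood at 467, 645 and 792 CPM in members, 409, 471 and 444 CPM in resting NK barcodes and 996, 1303 and 1269.9 CPM in cycling T cell barcodes. Of genes of one-carbon metabolism, which supplies nucleotide synthesis, 6 of 9 measured were higher and 1 lower in members. Tyms, thymidylate synthase, stood at 129, 177 and 158 CPM against 6.66, 12.6 and 9.41 CPM, and Mthfd2, a mitochondrial folate enzyme, at 101, 95.0 and 149 CPM against 15.0, 16.4 and 18.3 CPM. Shmt2, which releases one-carbon units from serine, was sparse at 2, 34 and 48 UMIs, and its log2 ratio of members over resting NK barcodes was -0.94, 0.80 and 2.78 in the 3 libraries.

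Of genes of tissue exit and migration, 6 of 12 measured were at least 1.5-fold lower in members and none higher, where 16.6% of all genes were lower. Cxcr4, the receptor for CXCL12, stood at 186, 346 and 249.7 CPM in members against 402, 346 and 449 CPM in resting NK barcodes. Ifitm1, an antiviral membrane protein, stood at 28.1, 83.7 and 225 CPM in all members and 37.1, 69.3 and 7.01 CPM in filtered members, so that the order of the Trikine and combination libraries turned. Tgfbr1, a receptor chain for TGF-beta, stood at 90.0, 14.2 and 77.3 CPM in members and 59.4, 40.4 and 70.3 CPM in resting NK barcodes, with the Trikine library lowest in both.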
